A study of Homo sapiens with 22 samples.

Results

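The centrosomal CEP and TUBGCP genes are genes whose symbol is CEP with a number, or TUBGCP2 to TUBGCP6, and which have a protein-coding RefSeq transcript in the count files. There are 41 of them (36 CEP and 5 TUBGCP genes) among 20239 gene symbols, each represented by its transcript with the highest mean read count over the libraries. RNA recovered with PSF (SFPQ), a splicing factor of the nucleus, by RNA immunoprecipitation sequencing, here PSF-RIP, was set against input RNA in 3 established prostate cancer cell lines. The lines were 22Rv1, a line labelled LTAD whose name the labels do not spell out, and LNCaP, which is androgen-responsive. 22Rv1 and LNCaP were kept in RPMI medium with 10% serum, and LTAD in medium without phenol red with 10% charcoal/dextran-treated serum. All cells then spent 3 days in 2.5% charcoal/dextran-treated serum before 10 nM dihydrotestosterone (DHT), an androgen, or vehicle (ethanol) for 24 h. There is 1 library for every combination of line, treatment and assay, hence 12 in 6 line-treatment pairs of PSF-RIP and input. Of the 22 samples in the series, 4 further PSF-CLIP peak lists (crosslinking immunoprecipitation, LNCaP, 2 lists for DHT and 2 for vehicle) were used. No immunoglobulin control library was analysed here.

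The centrosome is the main microtubule-organising centre of animal cells and is built around a pair of centrioles, which duplicate once in each cell cycle and serve as the base of the primary cilium. Most CEP proteins are scaffolds of the centriole, of its appendages, of the material around it or of nearby satellite granules. TUBGCP proteins hold gamma-tubulin in the ring complex that starts new microtubules. PSF binds intronic and other nuclear RNA, so recovery was read on exons and on introns of the same genes.

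PSF-RIP libraries held 4641602 to 10439461 mapped reads and input libraries 1073228 to 3014049, so input counts set the precision. SFPQ mRNA, which encodes the precipitated protein, was recovered at log2 0.99 ± 0.08 over input (SE, Benjamini-Hochberg adjusted p = 2.04e-09 in edgeR's quasi-likelihood test). All 7 prostate luminal markers had reads in every library, while basal markers (2 of 3 present in the data) summed to 0 to 6 reads. All 3 stromal markers also had reads in every library, with sums of 38 to 1082. The 2 leukocyte markers summed to 6 to 102 reads. No label says that the libraries came from separate cultures, so the p-values reflect only how these libraries vary, which may be technical.

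CLIP peaks, which have no strand in these lists, lay in introns of these genes. Per 100 kb of gene, peaks were fewer than over all genes in 3 of the 4 lists. In these genes 4 regions carried a peak in all 4 LNCaP lists, and such regions are not counted here over all genes. A stretch of each is shown because these regions recurred in every list. Each stretch is a window of 300 bases around the middle of a part shared by all 4 lists, or by 3 of them in CEP70. Its ends can lie outside that shared part. It is given on hg19 on the strand of the gene. In CEP170, CEP192 and CEP70 the capitals mark runs of 8 or more purines (A or G). In CEP72 they mark the unit TGTGAGG. The CEP170 stretch is chr1:243411618-243411917 (- strand), the CEP192 stretch chr18:13004912-13005211 (+ strand), the CEP70 stretch chr3:138254042-138254341 (- strand) and the CEP72 stretch chr5:650590-650889 (+ strand).
CEP170: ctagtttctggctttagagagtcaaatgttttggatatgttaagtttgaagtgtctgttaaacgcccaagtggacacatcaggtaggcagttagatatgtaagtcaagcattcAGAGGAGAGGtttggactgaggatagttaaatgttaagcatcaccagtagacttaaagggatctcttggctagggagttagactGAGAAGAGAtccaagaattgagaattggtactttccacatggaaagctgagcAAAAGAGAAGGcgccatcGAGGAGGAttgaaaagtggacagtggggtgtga
CEP192: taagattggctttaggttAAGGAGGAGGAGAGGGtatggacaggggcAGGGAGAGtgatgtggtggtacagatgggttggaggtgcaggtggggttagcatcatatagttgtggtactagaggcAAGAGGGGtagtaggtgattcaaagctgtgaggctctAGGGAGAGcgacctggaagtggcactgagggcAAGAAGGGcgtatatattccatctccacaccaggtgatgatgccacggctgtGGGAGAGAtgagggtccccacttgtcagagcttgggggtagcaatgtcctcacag
CEP70: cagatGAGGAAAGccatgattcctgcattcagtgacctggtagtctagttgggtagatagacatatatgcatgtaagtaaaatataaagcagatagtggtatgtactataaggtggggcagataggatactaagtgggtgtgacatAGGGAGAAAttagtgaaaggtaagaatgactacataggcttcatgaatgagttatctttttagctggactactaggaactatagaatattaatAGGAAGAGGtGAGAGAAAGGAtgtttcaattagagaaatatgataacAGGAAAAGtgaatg
CEP72: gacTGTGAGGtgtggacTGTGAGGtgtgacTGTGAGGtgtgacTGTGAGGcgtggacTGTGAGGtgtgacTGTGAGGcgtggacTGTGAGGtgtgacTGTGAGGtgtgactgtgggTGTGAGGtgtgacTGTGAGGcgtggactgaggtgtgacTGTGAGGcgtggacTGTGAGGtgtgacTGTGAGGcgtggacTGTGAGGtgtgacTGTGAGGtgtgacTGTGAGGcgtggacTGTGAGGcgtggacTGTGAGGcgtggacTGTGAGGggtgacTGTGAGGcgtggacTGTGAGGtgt
The CEP72 stretch holds 21 TGTGAGG units in 300 bases. The CEP192 stretch holds 6 purine runs, the CEP70 stretch 5 and the CEP170 stretch 4. All 4 lie inside a single intron and touch no GENCODE exon.

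The first comparison asked which of these mRNAs were recovered with PSF on exons. Of the 41 genes, 40 had enough reads to be tested, and CEP295NL did not (0 to 2 reads per library, within the span of TIMP2). In PSF-RIP, 24 of the 40 were higher than in input and 6 were lower, at an adjusted p under 0.05 in edgeR. Over all 13368 genes tested, 30.5% were higher and 27.5% lower, so 58% were called in one direction or the other. The share called higher was 60% for the 40 genes, and the share called lower was 15%. Their median log2 difference was 0.47, against 0.05 over all genes tested. A list of 57 other centrosome genes, among them PCNT, PLK4 and the HAUS genes, gave 31 higher and 12 lower with a median of 0.46. The medians of the CEP and TUBGCP genes and of the other centrosome genes thus lay close together, both above that of all genes. With the line-treatment pair as a block, the counts were 25 higher and 6 lower, beside 32.8% and 28.9% (61.6% in all). Across the 6 pairs their median lay between 0.28 (LNCaP vehicle) and 0.61 (LTAD vehicle), while the median of all genes lay between 0.01 and 0.10. 21 of the 40 were higher in PSF-RIP in 6 of 6 pairs, and only CEP63 was higher in none. The share of all genes higher in 6 of 6 pairs is not given here, so this count has no background.

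All 5 TUBGCP genes, which encode subunits of the gamma-tubulin ring, were higher in PSF-RIP. The gamma-tubulin gene TUBG1, from the list of other centrosome genes, was lower (-0.28, edgeR adjusted p = 0.0402). TUBG2 was not called (0.13, edgeR adjusted p = 0.563). Also lower in that list were MZT1 (-2.19), MZT2B (-1.36) and MZT2A (-1.07), with edgeR adjusted p = 4.73e-09, 8.33e-09 and 4.91e-07. TUBGCP6, a large ring subunit, had 8.56, 11.5 and 14.5 RPKM (lowest, median and highest of 6 libraries; RPKM is scaled reads per kilobase of exon relative to library size) in PSF-RIP, against 2.39, 3.13 and 6.84 RPKM in input. The 2 groups of libraries did not overlap. Its log2 difference was 1.65 ± 0.15 (SE, edgeR adjusted p = 1.32e-08) with 6 of 6 pairs above 0, the 46th highest of all genes tested, and single pairs ran from 1.08 to 2.097. TUBGCP5, another subunit found only in the large ring, had 3.43, 8.69 and 10.5 RPKM in PSF-RIP and 1.62, 4.88 and 6.76 RPKM in input, groups that overlapped because 22Rv1 was low in both. Within pairs it was higher in 6 of 6, at 0.77 ± 0.15 (edgeR adjusted p = 0.000213). TUBGCP2 and TUBGCP3 form the small complex that is common to all rings. TUBGCP2 stood at 0.59 ± 0.10 (6 of 6 pairs, edgeR adjusted p = 2.12e-05), from 24.5, 34.9 and 43.9 RPKM in PSF-RIP and 15.1, 23.2 and 28.7 RPKM in input. TUBGCP4 had 6.56, 7.11 and 14.4 RPKM in PSF-RIP and 4.58, 5.16 and 9.44 RPKM in input, and stood at 0.51 ± 0.12 (6 of 6, edgeR adjusted p = 0.000881). In TUBGCP2 and TUBGCP4 the ranges overlapped although each pair was higher in PSF-RIP. TUBGCP3 had 8.45, 9.66 and 19.6 RPKM in PSF-RIP and 4.42, 8.58 and 14.6 RPKM in input, which overlapped. Its difference was the smallest of the 5 TUBGCP genes, 0.42 ± 0.13 (5 of 6, edgeR adjusted p = 0.00976). With the trend on transcript length removed, TUBGCP3 was no longer called (0.29, adjusted p = 0.0591), nor was it without 22Rv1 (0.36, adjusted p = 0.14), without LTAD (0.32, adjusted p = 0.0519) or with the libraries thinned to the smallest one (0.20, adjusted p = 0.345).

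The genes of centriole duplication and elongation went both ways, with 6 of 12 higher, 3 lower and a median of 0.40. CEP152, the scaffold that brings the kinase PLK4 to the parent centriole, had 3.79, 5.61 and 17.4 RPKM in PSF-RIP against 1.46, 2.03 and 6.28 RPKM in input. The ranges overlapped since 22Rv1 was the highest line in both assays, yet PSF-RIP exceeded input in 6 of 6 pairs. Its log2 difference was 1.62 ± 0.17 (edgeR adjusted p = 8.93e-08), rank 57 of all genes tested. CEP295, needed to turn a new centriole into a centrosome, had 8.25, 10.0 and 14.1 RPKM in PSF-RIP against 4.62, 5.77 and 7.76 RPKM in input, with no overlap. It was higher by 0.84 ± 0.11 (6 of 6, edgeR adjusted p = 1.88e-06). CEP44, a protein of the centriole lumen, was higher by 0.85 ± 0.23 (6 of 6, edgeR adjusted p = 0.00364) on 4 to 13 input reads per library. Its pairs were 1.30 and 1.68 in 22Rv1 (DHT and vehicle) but 0.04 to 0.80 in LTAD and LNCaP, and without 22Rv1 the call was lost (0.42, adjusted p = 0.193).

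CEP63, which partners CEP152 at the parent centriole, went the other way. It had 3.47, 4.57 and 5.74 RPKM in PSF-RIP and 5.31, 6.91 and 7.76 RPKM in input, and it was lower in 6 of 6 pairs (log2 -0.56 ± 0.12, edgeR adjusted p = 0.000625). CEP57, a further scaffold of the same assembly, had 6.16, 7.54 and 8.80 RPKM in PSF-RIP and 7.96, 9.88 and 14.1 RPKM in input, with some overlap. It was lower by a log2 of -0.40 ± 0.15 (higher in 1 of 6 pairs, edgeR adjusted p = 0.0255). CEP97, which with CP110 caps the growing centriole, was at -0.31 ± 0.11 (1 of 6, edgeR adjusted p = 0.0198). Both calls depended on single lines. CEP57 was not called without LNCaP (edgeR adjusted p = 0.0798) or without LTAD (edgeR adjusted p = 0.286). CEP97 was not called without LNCaP (edgeR adjusted p = 0.0923) or without 22Rv1 (edgeR adjusted p = 0.123). Nor was CEP97 called without an expression filter (-0.25, edgeR adjusted p = 0.0979) or with the libraries thinned to the smallest one (-0.27, edgeR adjusted p = 0.147). CEP120, which promotes centriole elongation, was at -0.15 and CEP57L1, a CEP57 paralogue, at -0.05, and neither passed the test. CEP152 and CEP63, whose products work in one complex, were thus called in opposite directions in the same libraries, each in its own test; the difference between them was not tested.

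**Figure D1:**
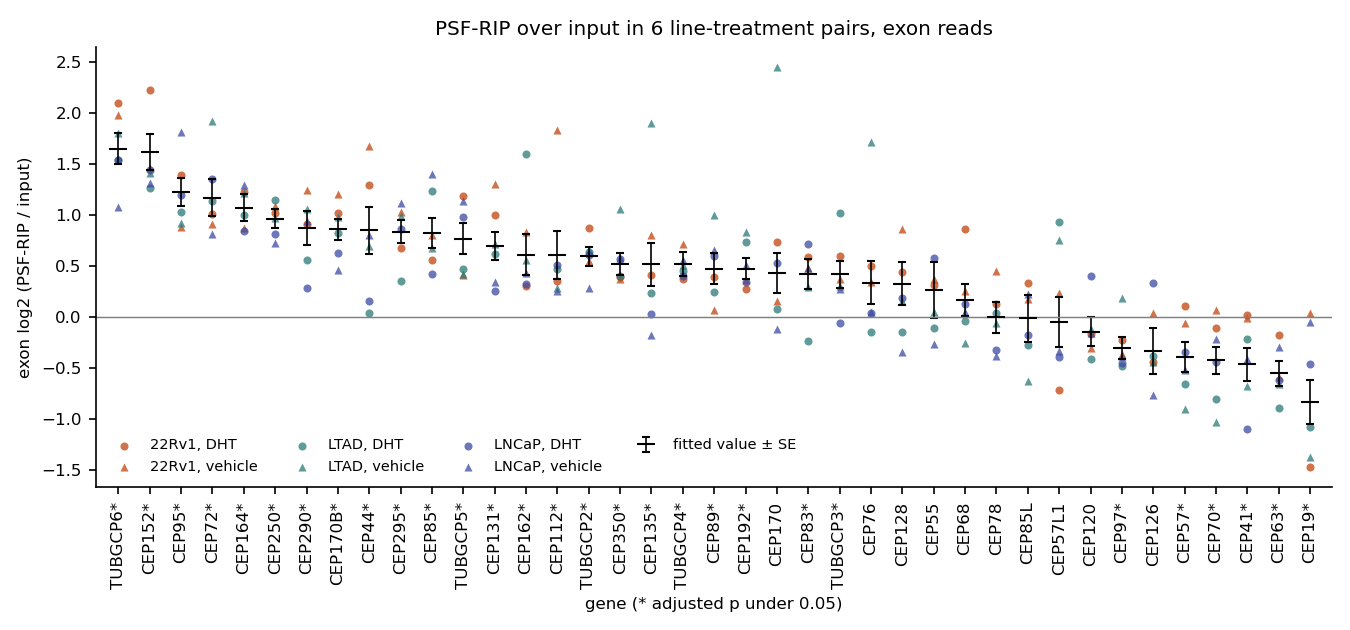
Exon log2 ratio of PSF-RIP to input for the tested genes except 1 not reported here (vertical axis), ordered by the fitted value, with 1 coloured point per line-treatment pair (circles DHT, triangles vehicle) and the fitted value ± SE in black. TUBGCP6 and CEP152 stand highest with all 6 pairs above 1, and CEP63 has all 6 pairs below 0; the point at 2.45 for CEP170 rests on 2 input reads in LTAD vehicle.

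Among the genes of appendages, the transition zone, satellites and cilia, 8 of 13 were higher and 2 lower (median 0.42). CEP72, a satellite protein that brings other proteins to the centrosome, had 4.95, 7.07 and 9.74 RPKM in PSF-RIP against 1.99, 2.67 and 5.06 RPKM in input. The groups touched only because the 22Rv1 vehicle input lay above the lowest PSF-RIP library, that of LNCaP vehicle. CEP72 was higher by 1.17 ± 0.19 (6 of 6 pairs, edgeR adjusted p = 1.71e-05). CEP164, a distal appendage protein needed to build cilia, did not overlap between groups, with 5.58, 8.98 and 10.9 RPKM in PSF-RIP against 2.34, 4.23 and 5.42 RPKM in input. Its difference was 1.07 ± 0.13 (6 of 6, edgeR adjusted p = 6.09e-07). CEP290, which anchors the ciliary transition zone, was higher by 0.87 ± 0.17 (6 of 6, edgeR adjusted p = 0.000164). CEP41, needed for tubulin glutamylation in cilia, was lower (-0.46 ± 0.16, higher in 1 of 6, edgeR adjusted p = 0.0183). CEP19, a ciliary protein, had 1.32, 4.09 and 5.45 RPKM in PSF-RIP and 1.94, 5.002 and 12.5 RPKM in input, with wide overlap, and the lowest log2 difference of the 40, -0.84 ± 0.22 (higher in 1 of 6, edgeR adjusted p = 0.00224). The calls of both were lost without LTAD (adjusted p = 0.0547 for CEP41 and 0.167 for CEP19), and that of CEP41 also without LNCaP (adjusted p = 0.227). CEP126, which organises microtubules at the base of the cilium, was at -0.33 and did not pass.

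The remaining group of linker, microtubule-organising and other genes gave 5 higher and 1 lower of 10 tested (median 0.47). CEP95, a centrosomal protein, had 13.0, 14.8 and 19.8 RPKM in PSF-RIP against 5.49, 6.39 and 7.73 RPKM in input. Every PSF-RIP library was above every input library, and the difference was 1.23 ± 0.14 (6 of 6 pairs, edgeR adjusted p = 1.87e-07). CEP250, the linker protein that ties the centrioles together, also had groups apart, at 10.2, 16.3 and 18.2 RPKM in PSF-RIP and 4.77, 8.40 and 10.2 RPKM in input, with the lowest PSF-RIP library just above the highest input. It was higher by 0.96 ± 0.09 (6 of 6, edgeR adjusted p = 2.73e-08). CEP170B, a paralogue of the subdistal appendage protein CEP170, was higher by 0.86 ± 0.10 (6 of 6, edgeR adjusted p = 5.37e-07). CEP70, a gamma-tubulin partner and the second most abundant of the genes in input, had 11.6, 12.5 and 19.6 RPKM in PSF-RIP and 11.9, 21.6 and 25.3 RPKM in input. The ranges overlapped, and it was lower by a log2 of -0.43 ± 0.13 (higher in 1 of 6, edgeR adjusted p = 0.00765). Its pairs were -0.80 and -1.04 in LTAD and between -0.44 and 0.07 in 22Rv1 and LNCaP, and without LTAD it was not called (-0.20, adjusted p = 0.199). CEP85L, a pericentriolar protein, was at -0.01. Over all 40 genes, every PSF-RIP library lay above every input library in 7, beside 5.51% of the 13368 genes tested, and below in 0, beside 7.94%.

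The PSF-RIP ratio varied with transcript length over all genes, and these genes are long. Their median summed exon length was 4623 bp against 3155.5 bp over all genes tested. Across all 13368 genes tested, recovery and exon length had a Spearman coefficient of 0.295, but across the 40 it was 0.143, and 0.0651 over 38 without the longest (CEP350) and the shortest (CEP19); these are descriptions across genes that share the same libraries. Set against genes of like length, 28 of the 40 lay above the median of their length bin, 17 above its upper quartile and 7 below its lower quartile. In the bin of 4000 to 6000 bp the 10 genes had a median of 0.55, against 0.19 for all 2789 genes of the bin. In the bin of 6000 to 8000 bp the 11 genes split, with a median of 0.42 against 0.21 and 4 genes below the lower quartile. Once the length trend of each library was removed, 19 of the 40 were higher and 6 lower with a median of 0.31, beside 30.3% and 26.2% of all genes. The genes also had lower GC (39.98% against 45.0%), a larger intronic share of input reads (33.7% against 18.7%) and a lower input level (5.55 against 9.97 RPKM) than all genes tested, as medians. What these properties contribute was not tested.

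**Figure D2:**
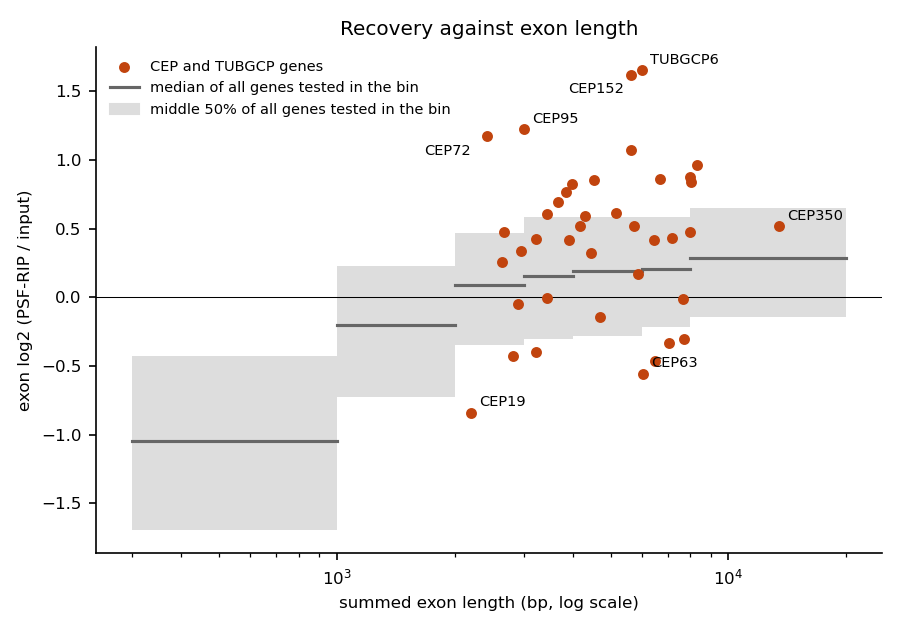
Fitted exon log2 ratio of PSF-RIP to input (vertical axis) against summed exon length (log axis) for the 40 genes (points), over the median (line) and middle 50% (grey) of all genes tested in 7 length bins; the outermost bins stop at the axis ends. TUBGCP6, CEP152, CEP95 and CEP72 lie well above genes of their length, and CEP19 and CEP63 lie below them.

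Introns were compared next, to see whether recovery extended to the unspliced RNA of the same genes. Here 5 of 40 genes were higher in PSF-RIP and 3 lower, beside 10.9% higher, 8.78% lower and 19.7% in all of the 11387 genes tested, so the count was close to the background. The median was 0.15, against 0.06 over all genes. The highest was CEP57, which was lower on exons: its intronic log2 difference was 0.99 ± 0.19 (6 of 6 pairs, edgeR adjusted p = 0.00081), with pairs between 0.61 and 1.26. CEP95 was at 0.81 ± 0.18 (6 of 6, edgeR adjusted p = 0.00338), though not called without LTAD (0.58, adjusted p = 0.0882). CEP72, at 0.69 ± 0.19 (6 of 6, edgeR adjusted p = 0.014), and CEP170B, at 0.65 ± 0.16 (6 of 6, edgeR adjusted p = 0.00549), were the other called genes with CEP162 and were chosen after their values were seen. Without 22Rv1 neither was called (CEP72 0.69, adjusted p = 0.0521; CEP170B 0.45, adjusted p = 0.106), and without LTAD the call of CEP72 was lost (0.66, adjusted p = 0.0652). CEP162, which links the transition zone to the axoneme, was at 0.80 ± 0.28 (6 of 6, edgeR adjusted p = 0.0464) on 2 input reads in each of 4 libraries, and lost its call whichever of the 3 lines was left out (adjusted p = 0.12 to 0.195). CEP44 (0.77) and CEP126 (0.71) did not pass.

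CEP295 had the lowest intronic value, -0.89 ± 0.15 (higher in 0 of 6 pairs, edgeR adjusted p = 0.000217), while its exons were higher. CEP350, a large protein that stabilises centrioles, was lower on introns (-0.60 ± 0.17, 0 of 6, edgeR adjusted p = 0.0155), and not called without 22Rv1 (adjusted p = 0.0686) or without LTAD (adjusted p = 0.0569). CEP131, a satellite protein, was lower too (-0.59 ± 0.20, higher in 1 of 6, edgeR adjusted p = 0.0414), and its call was lost whichever of the 3 lines was left out (adjusted p = 0.0568 to 0.222). CEP41 (-0.55) and CEP170 (-0.33) did not pass. CEP170 has a pseudogene of near-identical sequence, so its counts are uncertain. None of the TUBGCP genes passed on introns: TUBGCP5 was at 0.47, TUBGCP2 at 0.41, TUBGCP3 at 0.34, TUBGCP6 at 0.01 and TUBGCP4 at -0.28. Across the 40 genes the exon and intron differences were almost unrelated (Spearman 0.0889, a description across genes of the same libraries).

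Single introns carried much of this signal. In CEP72, intron 9 (chr5:640720-644413, introns numbered in genomic order) held 643 of 916 intronic reads in PSF-RIP and 63 of 124 in input. In CEP295, intron 19 (chr11:93454579-93455119), which holds the small RNA gene SCARNA9 in the deposited files, held 292 of 731 reads in PSF-RIP and 161 of 286 in input. In CEP152, intron 1 in genomic order (chr15:49031486-49033797), of which 1095 bases are exonic in GENCODE, held 394 of 651 in PSF-RIP and 30 of 107 in input. The most-read intron of CEP57 (chr11:95555741-95560949) has 2742 bases that are exonic in GENCODE transcripts, so exonic reads of other isoforms cannot be told apart from intronic ones there. When the most-read intron of each gene was left out, a setting added after the data were seen, 2 of 37 genes were higher and 1 lower, and the median was -0.020. CEP57 (0.66, adjusted p = 0.0315) and CEP95 (0.76, adjusted p = 0.00599) were still called higher and CEP350 lower (-0.79, adjusted p = 0.00299). CEP72 then stood at -0.04 (adjusted p = 0.925), CEP170B at 0.28 (adjusted p = 0.406) and CEP295 at -0.34 (adjusted p = 0.229). The most-read intron was chosen on its reads in all 12 libraries, most of which are PSF-RIP reads, and 26 of the 37 genes had a lower ratio without it.

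The difference between intron and exon recovery was tested within the 6 pairs. It was positive for 3 of 40 genes and negative for 8 (limma, adjusted p under 0.05), beside 15.7% and 12% of the 10755 genes tested, 27.7% in all. The share of the 40 that was negative was 20%, and their median was -0.26 against 0.02. CEP295 had the lowest value, a log2 of -1.73 ± 0.22 (0 of 6 pairs above 0, limma adjusted p = 0.000884), followed by TUBGCP6 at -1.59 ± 0.25 (0 of 6, limma adjusted p = 0.00216). CEP131 was at -1.22, CEP350 at -1.16, CEP164 at -1.07, CEP152 at -1.03, CEP250 at -0.98 and CEP192, which recruits PLK4 and pericentriolar material, at -0.57. In these 8 genes exons were recovered more than introns. CEP57 led the other direction at 1.40 ± 0.23 (6 of 6, limma adjusted p = 0.00297), with CEP126 at 1.05 and CEP63 at 0.77. CEP57 and CEP63 were thus lower on exons than on introns in PSF-RIP. For CEP63 this rested largely on intron 7 (chr3:134256111-134264427), of which 5138 bases are exonic in GENCODE. It held 293 of 539 intronic reads in PSF-RIP and 35 of 114 in input. Without that intron the intronic log2 difference of CEP63 was -0.48 (edgeR adjusted p = 0.172), against 0.10 with it and -0.56 on exons. The other TUBGCP genes did not pass (TUBGCP3 -0.06, TUBGCP2 -0.20, TUBGCP5 -0.37, TUBGCP4 -0.44). In simulated data with 170 of 10353 genes changed by a log2 of 1, this test recovered 0.588% of them. With 173 genes changed by 2 it recovered 94.2%. In the data 27.7% of genes were called, among them CEP192 at -0.57. The simulated shares therefore do not give the recovery of this test here, and a miss is not read as no difference. Of these calls, those of CEP126, CEP192, CEP250, CEP63 and CEP152 were lost when one or more lines were left out, and that of CEP350 without LNCaP (adjusted p = 0.0517).

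**Figure D3:**
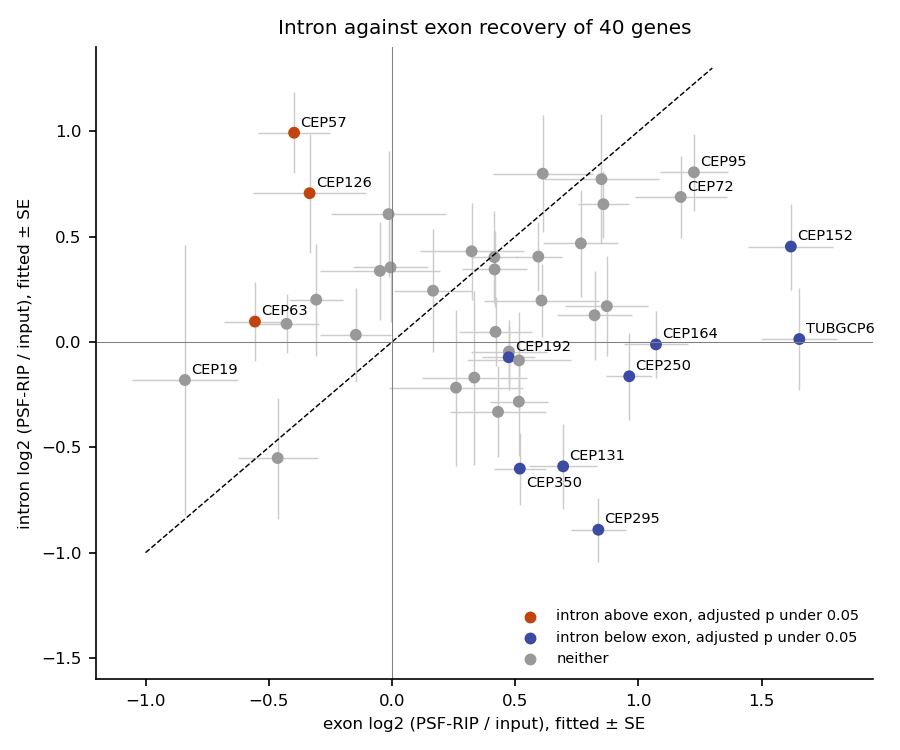
Fitted intron log2 ratio of PSF-RIP to input (vertical axis) against the exon ratio (horizontal axis) for 40 genes, with SE bars and a dashed line of equality. CEP57, CEP126 and CEP63 (red) lie above the line and CEP295, TUBGCP6, CEP131, CEP350, CEP164, CEP152, CEP250 and CEP192 (blue) below it.

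The effect of the androgen was compared over the 3 lines. With DHT, 0 of 40 genes were called against vehicle in input by edgeR. Of all 13776 genes, 0.624% were called in input (0.436% higher, 0.189% lower). In PSF-RIP, 0 of 40 were called, beside 2.9% of all genes (1.5% higher, 1.39% lower). For the DHT effect on PSF-RIP over input, 0 of 40 were called, beside 0% of all genes, and also 0 of 40 with the pair as a block, beside 0.0508% (0.0218% higher, 0.029% lower). At an unadjusted p under 0.05 there were 1, 2 and 0 genes in these comparisons, and DESeq2 called 0 in each. CEP295, chosen after its values were seen, had the smallest p in input. It had 6.12, 6.46 and 7.76 RPKM after DHT in 22Rv1, LTAD and LNCaP, against 5.01, 4.62 and 5.43 RPKM after vehicle in the same order. The value after DHT exceeded that after vehicle in 3 of 3 lines, but the difference of 0.42 ± 0.16 did not pass (edgeR adjusted p = 0.338). CEP290, also chosen after its values were seen, had DHT minus vehicle log2 values in PSF-RIP of -0.98 in LTAD and -0.56 in LNCaP and was level in 22Rv1. Over the lines it stood at -0.53 ± 0.19 and did not pass (edgeR adjusted p = 0.151). CEP55, which acts in the last step of cell division and was chosen after its values were seen, had 54 PSF-RIP reads after DHT and 6 after vehicle in LNCaP, and 11 against 2 input reads. In LTAD its DHT minus vehicle log2 value was -0.57 in PSF-RIP, so the lines did not share a direction. In simulated input counts with a log2 change of 1, 57.5% of changed genes were recovered by this test. Changes of that size or smaller may thus have been missed. The simulated counts held no differences between lines, so this share may not hold for the data.

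Levels in the lines themselves were compared in input. In a bulk measurement, fewer cells with an RNA and less RNA per cell cannot be told apart. 22Rv1 differed from LNCaP in 17 of 40 genes (10 higher, 7 lower, by edgeR), beside 49.9% of all genes (26.6% higher, 23.4% lower). 22Rv1 differed from LTAD in 20 of 40 (11 higher, 9 lower), beside 48.5% (26.3% higher, 22.2% lower). LTAD and LNCaP differed in 0 of 40, beside 8.22% of all genes (2.93% higher, 5.28% lower), with 5 of the 40 at an unadjusted p under 0.05 and 0 called by DESeq2. The counts against LNCaP were below the background, and that between 22Rv1 and LTAD was close to it. The calls moved with single pairs: without one pair, 4 to 10 genes were higher and 3 to 7 lower in 22Rv1 than in LNCaP, and 7 to 13 were higher and 2 to 8 lower in 22Rv1 than in LTAD.

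Of the 12 genes of duplication and elongation, 5 were higher and 0 lower in 22Rv1 than in LNCaP, and 6 were higher and 0 lower than in LTAD. CEP192 had 11.3 and 11.02 RPKM in 22Rv1 (DHT and vehicle), against 3.36 and 3.61 RPKM in LTAD and 4.47 and 3.82 RPKM in LNCaP, well apart from both. It was higher by 1.43 ± 0.18 than in LNCaP (edgeR adjusted p = 4.96e-05) and by 1.69 ± 0.19 than in LTAD (edgeR adjusted p = 2.13e-05). CEP97 had 10.6 and 12.3 RPKM in 22Rv1, against 6.14 and 4.21 RPKM in LTAD and 4.21 and 4.39 RPKM in LNCaP. Its differences were 1.42 ± 0.21 to LNCaP (edgeR adjusted p = 0.000151) and 1.12 ± 0.21 to LTAD (edgeR adjusted p = 0.000823). CEP85, which acts with STIL and PLK4 in duplication, was higher by 1.32 than in LNCaP and by 1.63 than in LTAD, but the first call was lost without the 22Rv1 DHT pair (adjusted p = 0.0755) or the LNCaP vehicle pair (adjusted p = 0.0638), and the second without the LTAD DHT pair (adjusted p = 0.0920). Proliferation markers moved the same way, with 7 of 10 higher in 22Rv1 than in LNCaP (median 1.58) and 5 of 10 higher than in LTAD (median 0.89). Their summed input level was 1294 and 1230 CPM in 22Rv1, 498 and 738 CPM in LTAD and 441 and 232 CPM in LNCaP (DHT and vehicle). Their part in the result was not tested.

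The 5 TUBGCP genes were called in both directions. TUBGCP3 had 12.9 and 14.6 RPKM in 22Rv1, against 4.42 and 8.26 RPKM in LTAD and 8.89 and 6.94 RPKM in LNCaP. It was higher than in LTAD by 1.18 ± 0.26 (edgeR adjusted p = 0.00306), a call lost without the 22Rv1 vehicle pair (adjusted p = 0.0512) or the LTAD DHT pair (adjusted p = 0.101). TUBGCP5 had 1.62 and 2.54 RPKM in 22Rv1, against 6.76 and 5.92 RPKM in LTAD and 5.05 and 4.71 RPKM in LNCaP, with no overlap. It was lower than in LTAD by a log2 of -1.604 ± 0.32 (edgeR adjusted p = 0.00157; 0.0526 without the 22Rv1 DHT pair) and lower than in LNCaP by -1.21 ± 0.33 (edgeR adjusted p = 0.00923). Against LNCaP, TUBGCP3 and TUBGCP4 were higher (0.79 and 0.84) and TUBGCP2, TUBGCP5 and TUBGCP6 lower (-0.69, -1.21 and -0.87), so all 5 were called, in opposite directions. Without the 22Rv1 DHT pair none of the 5 was called against LNCaP (adjusted p = 0.0699 to 0.14). Without the 22Rv1 vehicle pair or without the LNCaP vehicle pair only TUBGCP5 was, and without the LNCaP DHT pair TUBGCP4 and TUBGCP5 were not (adjusted p = 0.0574 and 0.0708). DESeq2 did not call TUBGCP6 (-0.83, adjusted p = 0.0755). Against LTAD, TUBGCP3 and TUBGCP4 were again higher and TUBGCP2 and TUBGCP5 lower, but TUBGCP2 and TUBGCP4 were not called without the 22Rv1 DHT pair (adjusted p = 0.0832 and 0.0584), the 22Rv1 vehicle pair (0.0503 and 0.0556) or the LTAD DHT pair (0.124 and 0.0834).

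CEP55 had a wide range, with 22.3 and 18.5 RPKM in 22Rv1, 7.47 and 9.99 RPKM in LTAD and 3.38 and 0.6247 RPKM in LNCaP (DHT and vehicle). It was higher in 22Rv1 than in LNCaP by 3.34 ± 0.77 (edgeR adjusted p = 0.00348), a call lost without the 22Rv1 DHT pair (adjusted p = 0.0576). CEP350 was higher in 22Rv1 than in LTAD by 1.07 ± 0.21 (edgeR adjusted p = 0.00147). Lower in 22Rv1 were CEP41, by -1.73 and -1.61 against LNCaP and LTAD, and CEP250 (-0.93), CEP70 (-0.92) and CEP131 (-1.01) against LNCaP. The calls of CEP41 against LTAD and of CEP70 and CEP131 against LNCaP were lost without the 22Rv1 vehicle pair (adjusted p = 0.0512, 0.0562 and 0.0795). That of CEP41 was also lost without the LTAD vehicle pair (adjusted p = 0.0571) and that of CEP131 without the LNCaP vehicle pair (adjusted p = 0.0501). CEP19 had 4.09 and 1.94 RPKM in 22Rv1, against 11.8 and 12.5 RPKM in LTAD, a log2 difference of -2.01 ± 0.40 (edgeR adjusted p = 0.00141). Over the 40 genes, mean input levels ran from 22.5 ± 5.66 RPKM for TUBGCP2 (SD, n = 6 libraries) and 19.8 ± 5.75 for CEP70 down to 0.860 ± 0.307 for CEP85L, and no gap between neighbours in that order exceeded the larger of their 2 SDs.

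**Figure D4:**
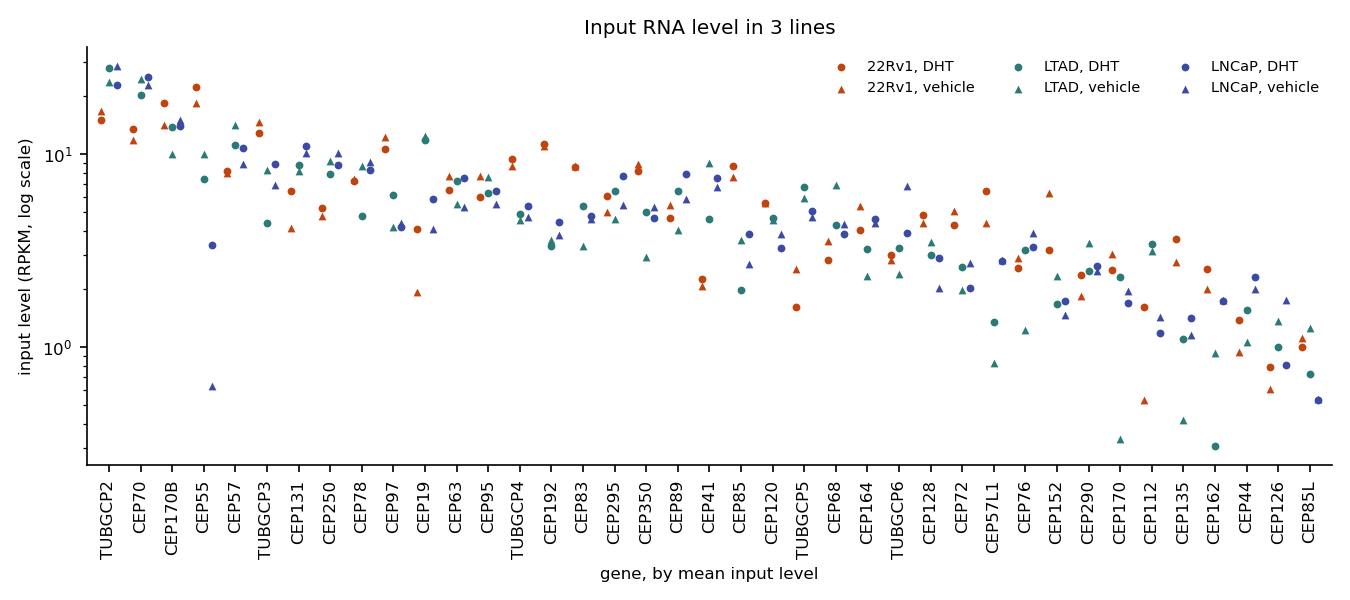
Input level (RPKM, log axis) of the tested genes except 1 not reported here, in each of 6 input libraries, with 22Rv1, LTAD and LNCaP side by side (circles DHT, triangles vehicle) and genes ordered by their mean. CEP192, CEP97 and CEP55 are highest in 22Rv1, TUBGCP5, CEP41 and CEP19 are lowest there, and CEP55 has its lowest value in LNCaP vehicle.

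Recovery itself was then compared between lines. No gene of the 40 was called for 22Rv1 minus LNCaP, 22Rv1 minus LTAD or LTAD minus LNCaP (0 genes of all 13776 in each by edgeR), with 2, 2 and 1 of the 40 at an unadjusted p under 0.05, and DESeq2 called 0 of the 40 in each. PSF-RIP and input libraries of a pair share their line and treatment, so the pair was also fitted as a block. The block called CEP131 (0.87, edgeR adjusted p = 0.0433) and CEP170B (0.57, edgeR adjusted p = 0.00578) higher in 22Rv1 than in LNCaP, beside 3% of all genes (2.05% higher, 0.951% lower). It called CEP70 higher in 22Rv1 than in LTAD (0.90, edgeR adjusted p = 0.00669), beside 3.08% (2.34% higher, 0.733% lower). Between LTAD and LNCaP the block called 0 of the 40, beside 2% (0.98% higher, 1.02% lower). These 3 genes were chosen after their values were seen. CEP131 had exon pair values of 1.00 and 1.31 in 22Rv1 against 0.25 and 0.34 in LNCaP (DHT and vehicle), which did not overlap. In simulated counts with a log2 change of 1 in this comparison, 6.32% of changed genes were recovered without the block, so a missed call says little.

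CLIP peaks gave a separate reading in LNCaP. A peak lay within 26 of the 41 genes in the first DHT list (63.4%, against 42.4% of 13342 genes) and within 15 in the second (36.6% against 26.8%). For vehicle the counts were 28 (68.3% against 44%) and 9 (22.0% against 11.4%). In any list, 32 of 41 genes had a peak (78% against 56.3%). Long genes offer more room: per 100 kb of gene, the 41 had 1.74, 0.718, 1.79 and 0.469 peaks in these lists, against 2.00, 0.841, 2.1 and 0.259 over all genes. The per-length density was thus lower than the background in 3 of the 4 lists, and the number of peaks in a gene followed its span (Spearman 0.576 across 40 genes, a description). The higher share of genes with a peak came with a longer span, and no test was made of it.

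CEP192 had the most peaks, 29 over the 4 lists (10 and 6 with DHT, 10 and 3 with vehicle). CEP70 had 15, CEP170 11, CEP72 10 and CEP290 8. Only CEP192, CEP70, CEP170, CEP72 and TUBGCP3 had a peak in every list, and the share of all genes with one in every list is not given here. No peak fell in TUBGCP6, CEP295, CEP131, CEP41, CEP44, CEP68, CEP78, CEP85 or CEP295NL. TUBGCP6, with the highest exon recovery, was thus without any peak, and CEP152, the next, had 2. Of the 24 genes higher on exons 19 had a peak, as did 5 of the 6 lower ones, and the number of peaks was unrelated to the exon (Spearman -0.0444) or intron difference (0.0273) across 40 genes. CLIP was made in LNCaP alone, and a peak list holds only peaks with a score of 50 or more.

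**Figure D5:**
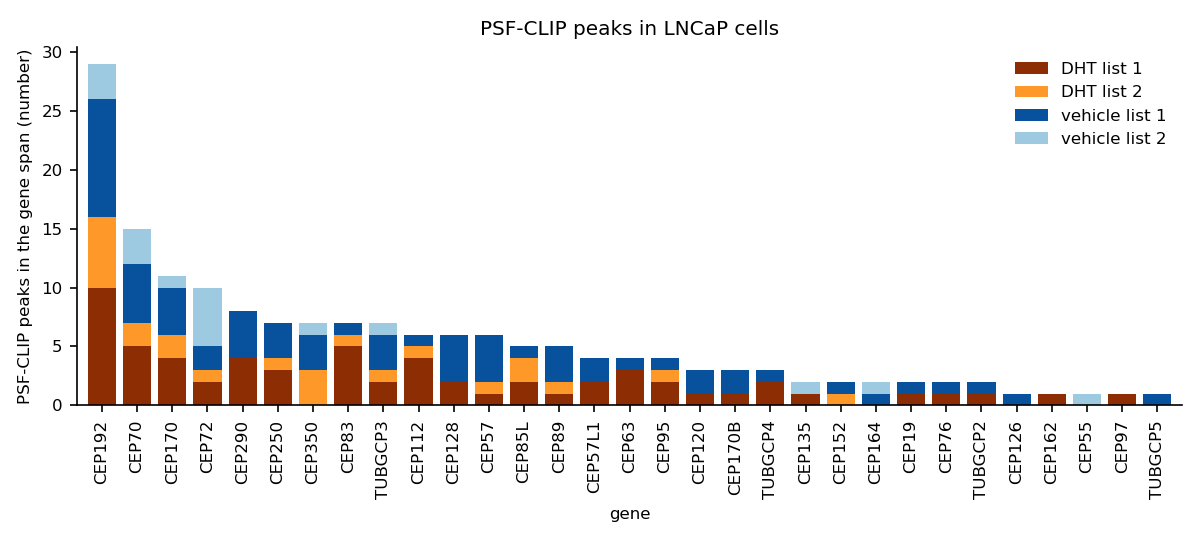
Number of PSF-CLIP peaks within the span of each gene with at least 1 peak, except 1 gene not reported here (bars, stacked by list, 2 DHT and 2 vehicle lists from LNCaP). CEP192 has 29 peaks, CEP70 15 and CEP170 11, and TUBGCP6 and CEP295 are absent because no list has a peak in them.

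When overlapping peaks were joined they made 107 regions, of which 72 were in 1 list, 22 in 2, 9 in 3 and 4 in all 4. Most lay in introns, 85 inside a single one, and 27 touched a GENCODE exon. Introns also make up most of the length of these genes, with medians of 54460 bp of intron and 4623 bp of exon over the 40 tested. Of the 107, 94 had more than 50% purines on the strand of the gene, with a median of 61.0%. In the first DHT list the median purine share of peaks in these genes was 62.2%, against 60.9% in other genes, while the genes as a whole had 48.8%, and peaks in other genes were purine-rich too. The strongest region was in intron 11 of CEP72 (chr5:648208-651724), with a score of up to 2709.75, in the top 0.0443% of its list. It is a tandem repeat: TGTGAGG occurs 216 times in its 3517 bases on the sense strand and 0 times on the other, out of 219 sense copies in the whole gene. TGTGAGG was searched on both strands and cannot overlap itself. On either strand it occurs in 11.1% of the 63 peaks in the CEP and TUBGCP genes and 9.63% of peaks in other genes in the first DHT list, and in 7.69% of 26 against 4.01% in the second. In the vehicle lists the shares were 9.23% of 65 against 10.9%, and 29.4% of 17 against 2.29%. CEP72 alone held 5 of these 17 peaks. Not all of them lie in the repeat, since intron 1 of CEP72 (chr5:617903-618501) also had a peak in that list. The repeat region joins 7 peaks over the 4 lists. A single repeat thus counts as several peaks in these shares. The region of CEP70 (chr3:138252856-138254944) had scores of up to 931.75, that of CEP192 (chr18:13003313-13005616) up to 822.28 and that of CEP170 (chr1:243411594-243412421) up to 278.56.

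The RIP reads could be set beside these regions. In CEP70, the intron with the 4-list region (chr3:138251413-138256019) was also its most-read intron, with 382 of 1261 intronic reads in PSF-RIP and 46 of 248 in input, though it makes up 4.74% of the intronic length. CEP170 also had its region in its most-read intron, which is 24.0% of its intronic length. Unlike in CEP70, that intron held a smaller share of intronic reads in PSF-RIP (133 of 400, 33.2%) than in input (39 of 102, 38.2%). In CEP72 they parted: the repeat in intron 11 had 42 reads in PSF-RIP and 14 in input over the whole intron, while intron 9 held most reads. CEP192 also parted: intron 3, with its region, had 69 of 1435 intronic reads in PSF-RIP and 15 of 338 in input and was 7th by reads. Reads that map to several places were not counted in the RIP files, which hold uniquely mapped reads, and how far that lowers counts in the repeat was not tested.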

How the data were processed

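RIP-seq was measured in 12 libraries of 3 lines and CLIP-seq in 4 LNCaP libraries. The RIP files deposited by the authors hold counts of unique reads for each RefSeq transcript and intron on hg19, with sense and antisense reads apart and rows without a read absent, not normalized, per the file headers. The CLIP lists deposited by the authors hold a score per peak of 50 or more and no strand, so overlap with a gene (1 base) ignored strand, where overlap on the gene's strand had been planned. The submitters' processing notes name GRCh37, hg19, TopHat2 2.1.0, Bowtie2 2.2.6 and Bowtie without roles, and the caller is not given in the sources used here. RIP used a Millipore EZ-Magna kit and libraries an Agilent SureSelect RNA capture kit, per the labels, so levels depend on capture.

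Sense exon counts, and sense counts summed over introns, were tested with edgeR 4.0.16 (R 4.3.3) (quasi-likelihood test, TMM scaling, filterByExpr), with p-values adjusted over all genes by Benjamini-Hochberg and called under 0.05. PSF-RIP against input had terms for line and treatment; DHT and line comparisons used 1 model that also let line and treatment effects differ by assay. Intron minus exon recovery was tested with limma 3.58.1 on 6 pair differences (prior count 2). An SE is the log2 difference divided by the root of edgeR's F. RPKM was computed from TMM-scaled counts. Symbols whose loci lay within 5 bp were joined. Deviations of PSF-RIP and input libraries of the same line and treatment from their assay means correlated at 0.799 to 0.942. These deviations include the differences between lines, so they do not show pairing beyond the shared line. Each pair shares its line and treatment per the labels, so the pairs were also fitted as a block. DESeq2 1.42.0, no filter, the longest transcript, length-trend removal, thinning to 838472 reads, and lines or pairs left out were alternatives.

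The genes, role groups and other lists were chosen with earlier results of these data known. Named with values were the TUBGCP genes, the 10 highest and 10 lowest genes on exons, the 5 highest and 5 lowest on introns, up to 8 called genes with the smallest p per DHT or line comparison, and the 5 with most peaks; others are said to be chosen later. Tests were checked on simulated data. A second LNCaP set (4 samples, 12 unmatched columns) and 2 CLIP inputs were not used here. Sequences are from GRCh37. 1 gene enters the counts but is not reported here by name.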

Additional observations from a re-analysis of the deposited data

Results flagged for a closer look

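Single pairs stood apart from the other 5 in 3 cases among 24 exon and 15 intron values examined, by a gap that chance gives in about 1 in 20 groups. The exon log2 ratio of PSF-RIP to input for CEP152 was 2.23 in 22Rv1 DHT, with the next pair at 1.46. That of CEP120 was 0.40 in LNCaP DHT, with the next at -0.12 and all other pairs below 0. The intron ratio of CEP162 was 1.83 in LNCaP vehicle, on 37 PSF-RIP and 2 input reads, with the next at 0.78.

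In 3 other cases both pairs of one line lay above 0 and both pairs of another below, and none of these differences was tested on its own. CEP85L averaged 0.25 on exons in 22Rv1 and -0.45 in LTAD. CEP57L1 averaged 0.84 on exons in LTAD, on 2 and 5 input reads, and -0.37 in LNCaP. TUBGCP4 averaged 1.10 on introns in LTAD, on 1 and 3 input reads, and -0.67 in 22Rv1.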

How the results depend on the processing

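Of the single-gene values, 548 kept direction and side of the threshold under an alternative, 62 lost the call, 6 gained it and 11 changed sign. The exon count was 22 higher and 6 lower with DESeq2, 25 and 6 with the replicate block, 25 and 5 without a filter and 18 and 5 of 37 after thinning; the exon median was 0.31 with the length trend removed. Leaving out a line gave 18 to 22 higher and 2 to 5 lower on exons, 2 to 4 higher and 1 to 2 lower on introns, and 1 to 2 positive, 5 to 7 negative and a median of -0.31 to -0.064 for intron minus exon. With at least 10 input reads, only 6 of the genes were tested for intron minus exon, with 1 positive, 4 negative and a median of -0.82; the median of all 2434 genes was then -0.18, and 34.6% of the called ones were positive, against 56.5% without that limit. Without the most-read intron, introns gave 2 higher, 1 lower and a median of -0.020, and intron minus exon a median of -0.40. Leaving out a pair gave 4 to 10 higher and 3 to 7 lower for 22Rv1 minus LNCaP, 7 to 13 higher and 2 to 8 lower for 22Rv1 minus LTAD, and 0 to 1 in each direction for LTAD minus LNCaP, where no filter gave 2 higher. Without a filter, DHT minus vehicle in PSF-RIP had 1 lower, CEP290 (-0.52, adjusted p = 0.0481). The block changed recovery calls between lines to 2 higher for 22Rv1 minus LNCaP and 1 for 22Rv1 minus LTAD, and ended the intron call of CEP162 (0.74, adjusted p = 0.0591). Values near 0 changed sign. On exons, CEP85L was 0.041 without a filter and -0.26 to 0.18 with a line left out, and CEP57L1 was 0.0040 without a filter and -0.29 to 0.13 with a line left out (0.08 without LNCaP). On introns, TUBGCP4 was -0.58 to 0.17 with a line left out, and TUBGCP6 was -0.070 to 0.068 with a line left out (-0.054 without 22Rv1), -0.030 with the block and -0.0027 with DESeq2. CEP55 in PSF-RIP, DHT minus vehicle, was -0.14 to 0.84 with a line left out, below 0 without LNCaP. The causes were not tested. Of all peaks, those with scores at or above the median of their list lay in 22 of 41 genes (53.7% against 39.5%), and peak midpoints in 32; overlap on the gene's strand could not be computed.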
